A study of Mus musculus with 54 samples.

Results

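The two-pore domain potassium (K2P) leak channels were examined in RNA from the mouse suprachiasmatic nucleus (SCN), the hypothalamic nucleus that holds the master circadian clock. The members are 8 genes, *Kcnk1*, *Kcnk2*, *Kcnk3*, *Kcnk4*, *Kcnk9*, *Kcnk10*, *Kcnk12* and *Kcnk13*, taken by symbol from the 30031 genes of the count table, and all 8 had a row. Male C3H/HeH mice aged 10 to 12 weeks were kept under 12 hr of light at 150 lux and 12 hr of darkness, and brains were taken at 6 Zeitgeber times (ZT, hours after lights on): ZT2, ZT6 and ZT10 in the light and ZT14, ZT18 and ZT22 in the dark. The SCN was cut out of Nissl-stained sections by laser capture, 5 mice were pooled per replicate, and each timepoint had 3 biological replicates (A, B and C). All mice were wild type and shared the same lighting, so the timepoint is the only factor that the sample labels record. Each replicate is an average over its pooled animals.

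K2P subunits pair up to form a pore that conducts at rest, and the potassium that leaks out through it holds the membrane potential of a neuron negative. Acid, membrane stretch, lipids, volatile anaesthetics and receptors coupled to the G protein Gq open or close particular members. SCN neurons are known to be more depolarised and to fire faster by day than by night, and background potassium conductance is among the currents that have been studied in that rhythm.

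Library totals ranged from 15412981 to 35820945 counts, with a median of 25075231, and between 1105 and 5504 of these fell on the 8 channel genes. The libraries fall into 3 clusters of neighbouring timepoints (ZT22 and ZT2, ZT6 and ZT10, and ZT14 and ZT18). By the root mean square difference in log2(CPM + 1) over the tested genes, the nearest library of another timepoint lay in the same cluster for 18 of 18 libraries, with a median distance of 0.61 inside and 0.98 between clusters. The study mentions sequencing batch along with timepoint where its libraries separate, and it also regards batch effects as small. The batch of each library is not given in the sources used here, so if batches matched the clusters, time of day and batch cannot be told apart in a difference between them, and whether a batch also divides a cluster was not tested. All 7 SCN neuron markers (*Avp*, *Vip* and others) were detected, with a mean summed level of 4727 CPM (counts scaled to a common library size) at ZT6 and 1862 CPM at ZT14, and 5 of the 7 changed with time. All 6 oligodendrocyte markers and all 6 astrocyte markers changed with time, with summed means from 1668 CPM at ZT10 to 5011 CPM at ZT18 and from 1869 CPM at ZT10 to 4641 CPM at ZT2. Of 6 markers of telencephalic excitatory neurons 3 changed with time (50%, beside 44.0% of all genes), and their summed level was 16.3 to 21.0 CPM in the ZT6 replicates, 99.8 to 212 CPM at ZT14 and 57.4 to 230 CPM at ZT22. The part of these cell types in the K2P levels was not tested. In pooled tissue a lower level may mean fewer cells of a type or less RNA per cell, and these cannot be told apart.

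Of the K2P genes, *Kcnk1* and *Kcnk3* supplied most of the transcripts. On the scale of RPKM (CPM divided by the exon length in kilobases), averaged over the 18 replicates, the level of *Kcnk1* was 16.1, higher than 82.9% of all tested genes. *Kcnk3* followed at 5.82 RPKM and *Kcnk2* at 3.89 RPKM, at percentiles 65.6 and 57.7 of all tested genes. The remaining members were scarcer, with *Kcnk13* at 1.77 RPKM, *Kcnk4* at 0.832 RPKM and *Kcnk10* at 0.439 RPKM. *Kcnk12* (0.103 RPKM) and *Kcnk9* (0.0494 RPKM) lay among the lowest 10% of tested genes. *Kcnk1* and *Kcnk3* together made up 74.7% of the summed RPKM of the 8 genes on average, between 65.0% and 86.2% in single replicates.

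**Figure D1:**
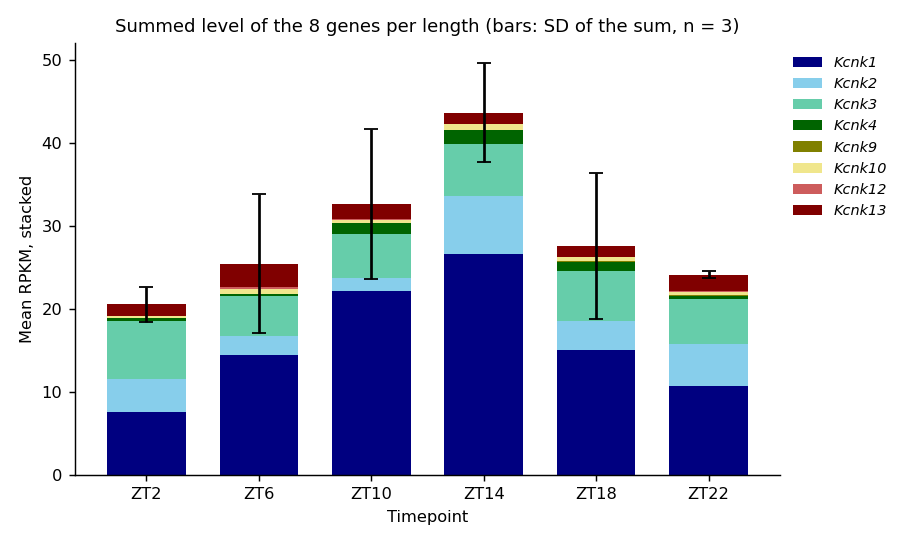
Stacked mean RPKM (vertical axis, CPM per kilobase of exon) of the 8 K2P genes at each of the 6 timepoints, with error bars for the SD of the sum over 3 replicates. The sum runs from 20.6 at ZT2 to 43.7 at ZT14, and the *Kcnk1* section of the bar changes the most.

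The comparison across the day asked whether a gene's 6 timepoint means differ. *Kcnk1*, *Kcnk2* and *Kcnk9* changed with time, and the other 5 members did not pass the test (edgeR quasi-likelihood F-test with Benjamini-Hochberg adjustment over 18941 genes, threshold 0.05). The 3 genes are 37.5% of the members, against 44.0% of all genes tested, so the share of K2P genes that changed was near the background. *Kcnk1* (adjusted p = 0.00212), *Kcnk2* (adjusted p = 0.00764) and *Kcnk9* (adjusted p = 0.0128) belong to different branches of the family. The adjusted p of the others was 0.262 for *Kcnk4*, 0.278 for *Kcnk12*, 0.289 for *Kcnk10*, 0.478 for *Kcnk3* and 0.776 for *Kcnk13*. JTK_CYCLE, which compares each gene with 24 hr cosine curves, was passed by *Kcnk1* with a peak at ZT14 and by *Kcnk9* with a peak at ZT22. These 2 of 8 members were called cycling, against 29.9% of all genes, and *Kcnk2* did not pass (JTK_CYCLE p = 0.115, exact).

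**Figure D2:**
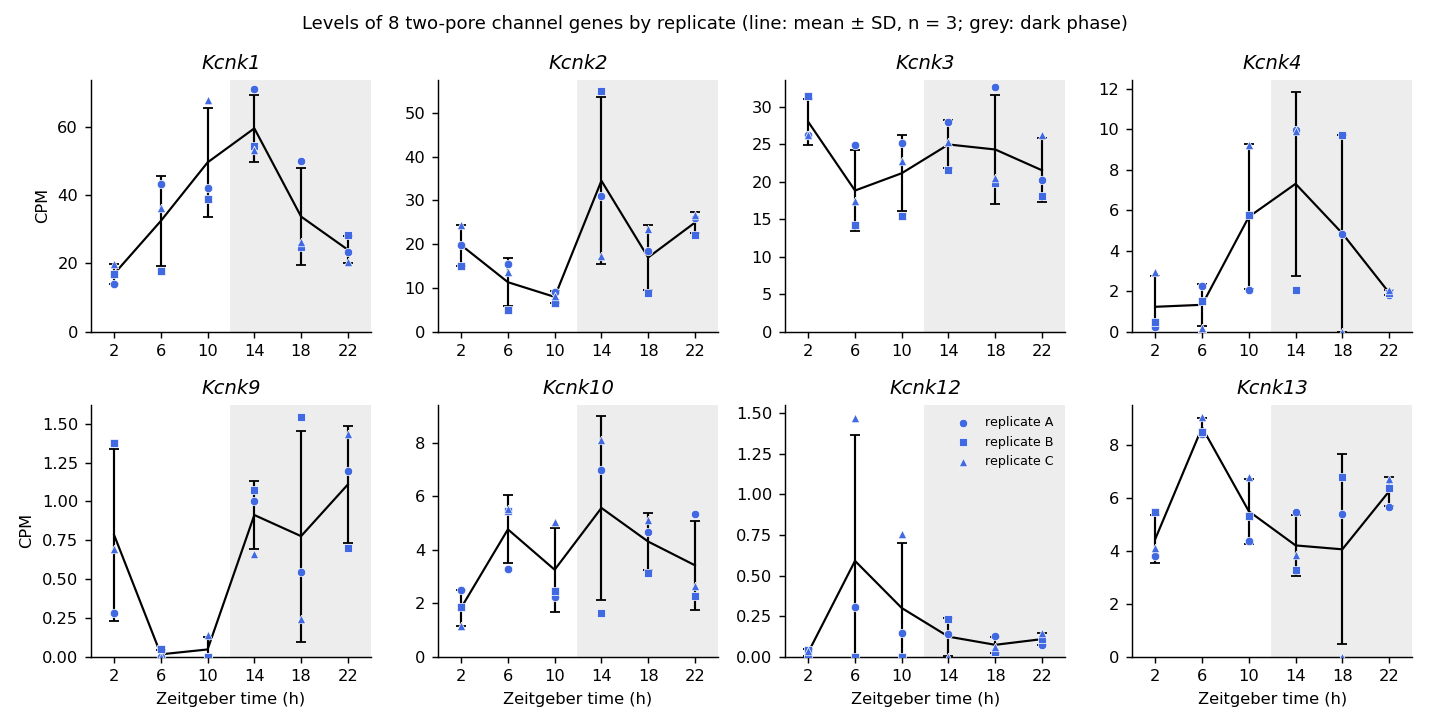
CPM (vertical axis, a separate linear scale per gene) of the 8 K2P genes against Zeitgeber time in hours, with 1 symbol per replicate and a line through the means ± SD (n = 3), the dark phase in grey. The mean of *Kcnk1* climbs from ZT2 to ZT14, *Kcnk9* is almost absent at ZT6 and ZT10, and *Kcnk3* stays between 14.2 and 32.7 CPM throughout.

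*Kcnk1* encodes TWIK-1, a weakly conducting channel of which much is kept in internal membranes, and it lies on chromosome 8 from 125995170 to 126030685 (GRCm38, plus strand). At ZT2 its replicates had 244, 395 and 514 reads, or 13.8 to 19.8 CPM, and at ZT14 they had 71.0, 54.5 and 53.3 CPM. The ZT2 replicates were the lowest of the gene except for ZT6 B at 17.7 CPM, and those at ZT14 lay clear of all replicates at ZT2, ZT6, ZT18 and ZT22. Between ZT14 and ZT18 21.8% of all genes were separated in this way, and the share was not counted for the other pairs. From ZT2 to ZT14 the means rose through ZT6 (replicates at 43.4, 17.7 and 36.2 CPM) and ZT10 (38.8 to 67.9 CPM). They were lower again at ZT18 (50.1, 24.8 and 26.2 CPM) and ZT22 (23.2, 28.2 and 20.5 CPM). The steps from ZT6 to ZT10, ZT10 to ZT14 and ZT14 to ZT18 were not called (edgeR adjusted p = 0.505, 0.643 and 0.272). The mean at ZT14, 59.6 ± 9.88 CPM (SD, n = 3), was 3.53-fold that at ZT2, 16.9 ± 3.01 CPM, with a log2 difference of 1.82 (SE 0.34, edgeR adjusted p = 0.000693). For that pair 23.8% of all genes were called. In all, 6 of the 15 pairs of timepoints differed for *Kcnk1*, each of them between clusters. ZT2 was also below ZT6, ZT10 and ZT18 (33.8%, 29.0% and 22.0% of all genes called), and ZT22 was below ZT10 and ZT14 (26.4% and 19.1%).

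*Kcnk2* encodes TREK-1, which opens on stretch, warmth and polyunsaturated lipids and is closed by Gq and cAMP signalling, and it lies on chromosome 1 from 189207930 to 189402273 (minus strand). It was lowest at ZT10, with 9.08, 6.47 and 8.21 CPM in replicates A, B and C, and ZT6 was little higher at 15.4, 4.97 and 13.5 CPM. It had 19.8, 15.1 and 24.5 CPM at ZT2 and 26.0, 22.1 and 26.7 CPM at ZT22. The ZT22 replicates all lay above those at ZT6 and ZT10 (the share of all genes was not counted for these pairs). ZT14 held both the highest values and the widest spread, with 31.0 CPM in A, 55.1 CPM in B and 17.3 CPM in C, and ZT18 had 18.5, 8.90 and 23.4 CPM. By the means, ZT14 (34.5 ± 19.1 CPM, SD, n = 3) was 4.36-fold above ZT10 (7.92 ± 1.33 CPM), a log2 difference of 2.12 (SE 0.45, edgeR adjusted p = 0.00344, against 16.8% of all genes called for that pair). Of the 15 pairs, 4 differed, each of them between clusters. The others were ZT14 over ZT6 (23.3% of all genes called) and ZT2 and ZT22 over ZT10 (29.0% and 26.4%).

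The ZT14 peak of *Kcnk2* rested on replicates A and B, and these were also the libraries in which genes of striatal projection neurons stood highest. Each of 6 such genes (*Drd1*, *Drd2*, *Adora2a*, *Ppp1r1b*, *Rgs9* and *Gpr6*, a list chosen after the values were seen) had its highest level in ZT14 B and its next highest in ZT14 A. Their summed level was 513 CPM in ZT14 A, 719 CPM in ZT14 B and 92.8 CPM in ZT14 C, and it ranged from 76.7 to 316 CPM over the 16 replicates other than A and B of ZT14. *Drd2*, the dopamine receptor of indirect pathway neurons, had 10.9 CPM in ZT14 A and 25.8 CPM in ZT14 B but 0.0550 CPM in ZT14 C, and no reads in ZT6 C, ZT10 B or ZT10 C. *Drd1* is also known from the SCN, and it was at 44.8 CPM or more in every replicate. The part of striatal tissue in the *Kcnk2* result was not tested beyond leaving both libraries out. ZT14 C, the ZT14 library then kept, had more of the telencephalic excitatory markers. Their summed level was 212 CPM there, against 107 CPM in ZT14 A and 99.8 CPM in ZT14 B. The part of such tissue in the *Kcnk1* and *Kcnk2* levels was not tested.

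With ZT14 A and B left out, *Kcnk2* still changed with time (edgeR adjusted p = 0.0452, 16 replicates), but its highest mean was then that of ZT22, and the remaining ZT14 library is assumed to vary like the others. ZT14 then exceeded ZT10 by a log2 difference of 1.05 (SE 0.56, adjusted p = 0.321), and ZT22 exceeded ZT10 by 1.69 (SE 0.43, adjusted p = 0.00798). *Kcnk2* also passed JTK_CYCLE without them (exact p = 0.0014). For *Kcnk1* the adjusted p for the change with time was 0.0254 in this fit, and ZT14, now 1 library, exceeded ZT2 by a log2 difference of 1.53 (SE 0.45, adjusted p = 0.0411). Its ZT14 level could not be separated from that at ZT10, with a log2 difference of 0.02 (SE 0.48, adjusted p = 0.993) in place of 0.26 (SE 0.33, adjusted p = 0.643) over all replicates.

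**Figure D3:**
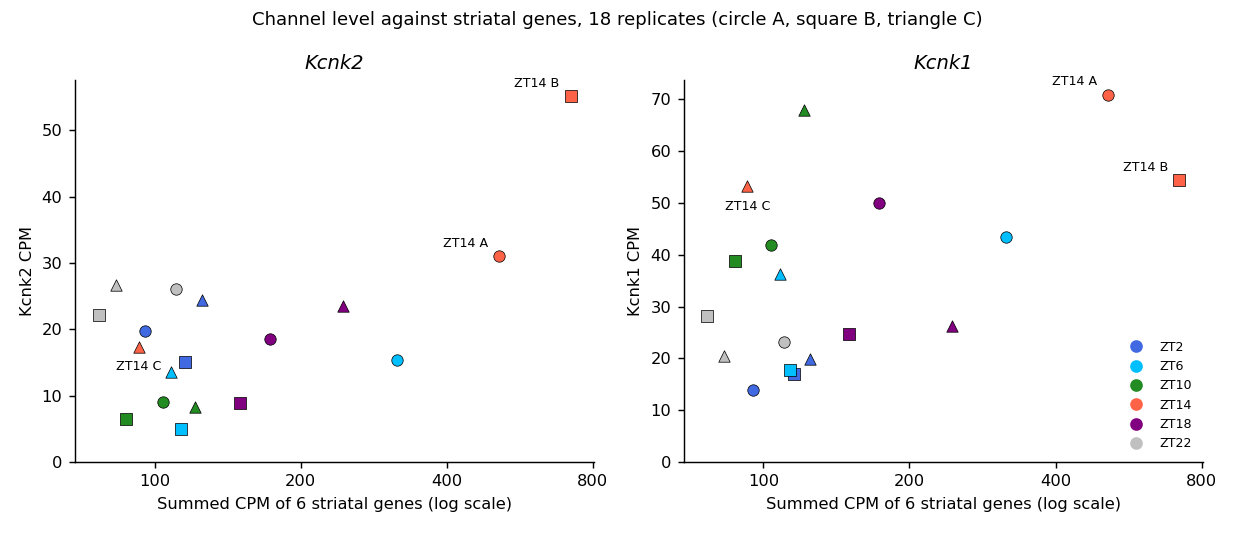
CPM of *Kcnk2* (left) and *Kcnk1* (right) in each of the 18 replicates, against the summed CPM of 6 striatal genes on a log axis, coloured by timepoint and with circles, squares and triangles for replicates A, B and C. ZT14 A and ZT14 B stand apart on the horizontal axis and hold the highest *Kcnk2* values, whereas *Kcnk1* in ZT14 C (53.3 CPM) is close to that in ZT14 B (54.5 CPM). The telencephalic excitatory markers, not shown here, were higher in ZT14 C (212 CPM) than in ZT14 A or ZT14 B.

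The upstream sequences of *Kcnk1* and *Kcnk2* are shown because these were the abundant members that changed with time. RefSeq (GRCm38.p6) gave 10 promoter windows for 6 of the members, each from 250 bases before to 50 bases after a transcription start, and 4 of them belong to *Kcnk2*. The lines give the 250 bases before the *Kcnk1* start (chr8:125994852-125995101, plus strand) and before the *Kcnk2* start that is farthest upstream (chr1:189402274-189402523, minus strand), written 5′ to 3′. Neither stretch overlaps an annotated exon, and none of the motifs searched occurs in them, so they hold no capitals.
*Kcnk1*: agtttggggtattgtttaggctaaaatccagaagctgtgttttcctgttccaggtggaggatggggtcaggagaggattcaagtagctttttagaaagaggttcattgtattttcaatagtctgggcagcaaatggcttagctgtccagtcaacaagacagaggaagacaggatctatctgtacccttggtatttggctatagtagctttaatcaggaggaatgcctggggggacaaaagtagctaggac
*Kcnk2*, farthest start: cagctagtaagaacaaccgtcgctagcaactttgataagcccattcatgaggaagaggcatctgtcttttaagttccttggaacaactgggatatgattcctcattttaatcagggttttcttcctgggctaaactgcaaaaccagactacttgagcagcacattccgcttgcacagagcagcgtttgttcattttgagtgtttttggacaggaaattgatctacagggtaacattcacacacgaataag

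The stretches had 44.4% G and C before *Kcnk1* and 42.4% before *Kcnk2*. Over whole windows of 300 bases the 4 of *Kcnk2* ran from 43% at the farthest start to 74.7% at another, beside a median of 52.7% over all 32851 RefSeq windows. Motifs of clock and cAMP signalling were searched on both strands. The E-box CACGTG, held by 7.15% of all windows, was in 0 of the 10 K2P windows, as were the D-box TTATGNAA (3.38% of all windows) and the cAMP response element TGACGTCA (1.79%). The GC box GGGCGG was in 1 window each of *Kcnk2*, *Kcnk4*, *Kcnk10* and *Kcnk12*, and in 35.7% of all windows. A window without these letters says nothing of sites elsewhere in the gene.

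*Kcnk10* (TREK-2) and *Kcnk4* (TRAAK) are the nearest relatives of *Kcnk2* and share its response to stretch and lipids, and neither changed with time. *Kcnk10* (chromosome 12 from 98429437 to 98578310, minus strand) had a mean of 1.83 ± 0.666 CPM at ZT2 and 5.56 ± 3.45 CPM at ZT14 (SD, n = 3), a log2 difference of 1.60 (SE 0.61, edgeR adjusted p = 0.0667). Its ZT14 replicates spanned 6.97, 1.63 and 8.08 CPM, so that ZT14 B, the library with the highest *Kcnk2*, was among the lowest for *Kcnk10*. Per length, *Kcnk2* exceeded *Kcnk10* in mean level at every timepoint, from 4.21-fold at ZT6 to 19.2-fold at ZT2, and in single replicates the ratio ran from 1.62 in ZT6 B to 60.2 in ZT14 B. These ratios use the deposited counts. Reads recovered from the deposited normalized signal were fewer at ZT6, with 253 against 308 for *Kcnk10* and 668 against 745 for *Kcnk2*.

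*Kcnk4* (chromosome 19 from 6923966 to 6934515, minus strand) varied widely between replicates. At ZT14 it had 9.96, 2.06 and 9.90 CPM, and at ZT18 it had 4.83 and 9.73 CPM in A and B but no reads in C. At ZT2 the replicates had 0.226, 0.473 and 2.97 CPM. The log2 difference between ZT14 and ZT2 was 2.56 (SE 1.24, edgeR adjusted p = 0.152). ZT18 C was the shallowest library, and 0 reads there allow a level of up to 0.183 CPM at a floor of 3 counts. At ZT6 and ZT10 the deposited tables disagree on *Kcnk4*, with 458 reads in the count table and 190 in the normalized one, while the other timepoints have 1493 reads in both. Its 3′ part also overlaps *Catsperz* on the same strand, and how reads in the overlap were assigned is not given in the sources used here.

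*Kcnk9* and *Kcnk3* encode TASK-3 and TASK-1, closed by extracellular acid and by Gq-coupled receptors, and their time courses differed. *Kcnk9*, an imprinted gene expressed in the brain from the maternal copy, lies on chromosome 15 from 72501089 to 72546340 (minus strand). It had 5, 32 and 18 reads in the ZT2 replicates, 36, 37 and 24 at ZT14, 17, 48 and 4 at ZT18, and 33, 19 and 40 at ZT22. At ZT6 there was 1 read, in B, and at ZT10 there were 3, all in C. No replicate of ZT6 or ZT10 reached the level of any replicate at the other timepoints. The gap was narrow, between 3 reads in ZT10 C (0.142 CPM) and 4 reads in ZT18 C (0.244 CPM). The share of all genes separated in this way was not counted.

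Over the 4 other timepoints *Kcnk9* had 313 reads against 4 at ZT6 and ZT10, a ratio of 30.4 after scaling to library size (95% exact interval 11.8 to 112, for counting error only). Its mean was highest at ZT22, 1.11 ± 0.375 CPM, where 92 reads stood against 1 at ZT6. Both tables hold the same reads for this gene. Of the 15 pairs 7 differed, with ZT6 below ZT2, ZT14, ZT18 and ZT22 (33.8%, 23.3%, 20.7% and 32.5% of all genes called) and ZT10 below ZT2, ZT14 and ZT22 (29.0%, 16.8% and 26.4%). Each of these sets ZT6 or ZT10 against another cluster, and 97.3% of the variance of its timepoint means lay between clusters. The same share was 66.1% for *Kcnk1* and 78.7% for *Kcnk2*, with a median of 90.3% over all genes that changed with time. For *Kcnk9* the time of day therefore cannot be told apart from a batch matching the clusters. The same limit holds for the called pairs of *Kcnk1* (6) and *Kcnk2* (4), which all lay between clusters. The adjusted p values of *Kcnk9* for ZT14 against ZT18 and for ZT22 against ZT2 were 0.968 and 1 (edgeR).

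*Kcnk3* (chromosome 5 from 30588170 to 30625271, plus strand) had the smallest range of the 8 members. Its means ran from 18.8 ± 5.46 CPM at ZT6 to 28.0 ± 3.03 CPM at ZT2 (SD, n = 3), a log2 difference of 0.57 (SE 0.28, edgeR adjusted p = 0.119). The 3 replicates at ZT2 had 26.3, 31.5 and 26.2 CPM and those at ZT6 had 24.9, 14.2 and 17.4 CPM. These did not overlap (the share of all genes was not counted for this pair), while the replicates of ZT14, ZT18 and ZT22 overlapped with both. As *Kcnk1* moved and *Kcnk3* did not pass the test, the ratio of their mean RPKM went from 1.07 at ZT2 to 4.24 at ZT14, with single replicates at 0.933 to 1.34 and at 3.74 to 4.51. *Kcnk1* made up 36.5 ± 2.81% of the summed RPKM of the 8 genes at ZT2 and 67.4 ± 3.13% at ZT10.

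*Kcnk13* and *Kcnk12* encode THIK-1, the main K2P channel of microglia, and THIK-2, which is largely silent at the cell surface. *Kcnk13* (chromosome 12 from 99964499 to 100062682, plus strand) had its 3 highest replicates at ZT6, with 8.42, 8.48 and 9.04 CPM, clear of the 4.37, 5.29 and 6.80 CPM at ZT10. ZT18 C had no reads of this gene, against 5.37 and 6.78 CPM in ZT18 A and B. Without ZT18 C the adjusted p for the change with time was 0.109, against 0.776 with it. The 7 microglial markers summed to 299, 214 and 96.6 CPM in the ZT6 replicates and to 205 CPM in ZT18 C, and ZT6 C, the library with their lowest value, was the one with the most *Kcnk13*. The part of microglial RNA in these levels was not tested.

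*Kcnk12* (chromosome 17 from 87745801 to 87797994, minus strand) was near the limit of detection, with 87 reads over all replicates. Of these, 57 were counted at ZT6 and ZT10, of which 31 were in ZT6 C and 16 in ZT10 C. The normalized table gives only 7 reads for the same libraries and the same 30 reads for the others. The highest mean of *Kcnk12*, at ZT6 (0.590 ± 0.774 CPM, SD, n = 3), thus depends on which table is read, and with the recovered reads the edgeR adjusted p for the change with time was 0.859 in place of 0.278.

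Inside the clusters no member passed the threshold. Between ZT14 and ZT18, where 0.570% of all genes were called, 0 of 8 members were called by edgeR or by DESeq2. An unadjusted edgeR p below 0.05 was reached by 2 members, and the share of all genes at that level was not counted. *Kcnk1* was higher at ZT14 by a log2 difference of 0.82 (SE 0.33, adjusted p = 0.272), and its replicates did not overlap, as was the case for 21.8% of all genes. *Kcnk2* was higher by 1.03 (SE 0.44, adjusted p = 0.302), with overlap. Without ZT14 A and B this *Kcnk2* difference was -0.04 (SE 0.58), whereas that of *Kcnk1* was 0.62 (SE 0.47, adjusted p = 0.889). Between ZT22 and ZT2 (0.0317% of all genes called) and between ZT6 and ZT10 (0.0475%), edgeR and DESeq2 called 0 members and edgeR put 0 below an unadjusted p of 0.05. The replicates of *Kcnk1*, *Kcnk12* and *Kcnk13* did not overlap between ZT22 and ZT2, nor those of *Kcnk13* between ZT6 and ZT10, and neither did those of 11.6% and 12.4% of all genes.

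**Figure D4:**
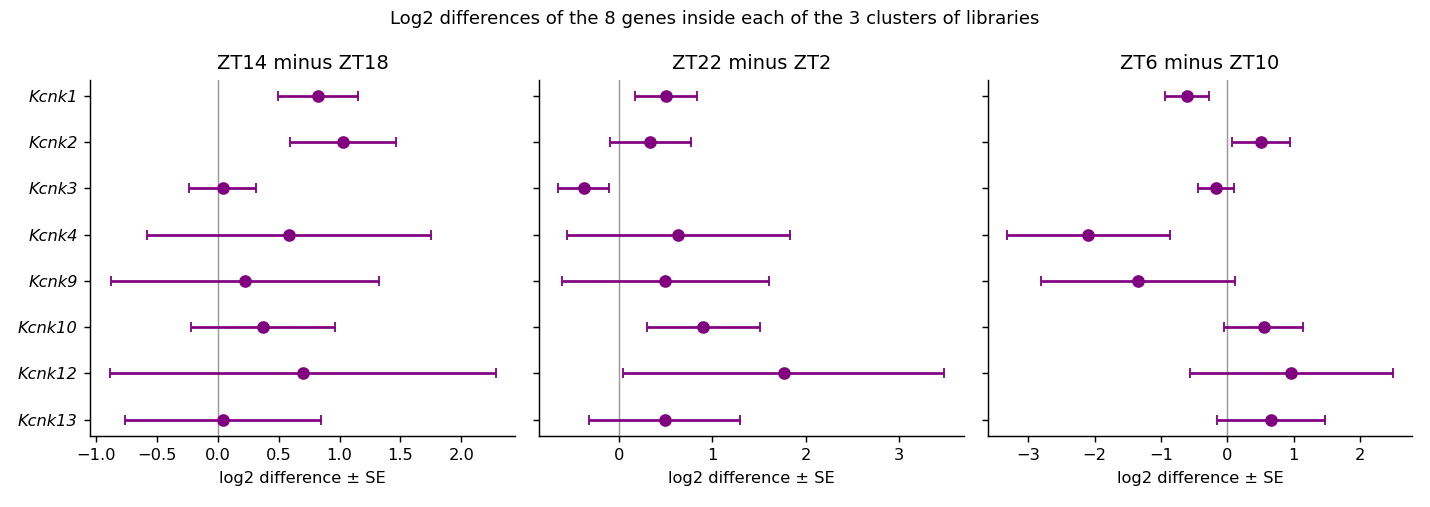
Log2 differences ± SE of the 8 K2P genes inside the 3 clusters of libraries, ZT14 minus ZT18, ZT22 minus ZT2 and ZT6 minus ZT10 (horizontal axes, scaled separately). The intervals of *Kcnk1* and *Kcnk2* lie to the right of 0 in the first panel, at 0.82 and 1.03, and those of the scarce genes *Kcnk4*, *Kcnk9* and *Kcnk12* are several times wider.

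The study describes transcripts that are high at both ZT14 and ZT22, and the members were examined for that pattern. *Kcnk2* and *Kcnk9* had their highest means at these timepoints and changed with time, as did 2.15% of all genes (5.43% had such means whatever the test). For *Kcnk2* the place of ZT14 rested on ZT14 A and B. Without them the log2 difference of ZT14 minus ZT2 was -0.32 for this gene. For *Kcnk9* no pair among ZT22, ZT14, ZT2 and ZT18 was called. A contrast was made of ZT14 and ZT22 with ZT18 and ZT2. On either side it takes 1 timepoint of the ZT22 and ZT2 cluster and 1 of the ZT14 and ZT18 cluster, and it leaves out ZT6 and ZT10. This contrast called 0.148% of all genes and 0 members by edgeR or DESeq2. Unadjusted edgeR p values were below 0.05 for *Kcnk1* (log2 difference 0.66, SE 0.23, adjusted p = 0.275) and *Kcnk2* (0.68, SE 0.31, adjusted p = 0.441). The share of all genes at that unadjusted level was not counted here either. For *Kcnk9* the difference was 0.36 (SE 0.78). The median over the 8 members was 0.62, beside 0.01 over all genes. This median includes scarce genes with wide errors (*Kcnk12* at 1.23, SE 1.17, and *Kcnk4* at 0.61, SE 0.83), and *Kcnk3* was at -0.17 (SE 0.19). In the same contrast the median was 1.55 over 6 markers of telencephalic excitatory neurons (*Slc17a7* called, edgeR adjusted p = 0.0262) and 0.38 over 5 markers of neurons in general (*Syt1* and *Rbfox3* called, each adjusted p = 0.0463). Over the 7 SCN neuron markers it was -0.02, with 0 called. The part of neuronal content in the members' values was not tested. Without ZT14 A and B the *Kcnk2* value was 0.14 (SE 0.35) and the *Kcnk1* value 0.56 (SE 0.29). The other members were then at -0.19 (*Kcnk3*), 0.83 (*Kcnk4*), 0.11 (*Kcnk9*), 0.86 (*Kcnk10*), -1.09 (*Kcnk12*) and 0.19 (*Kcnk13*).

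When each member's timepoints were put in order of their means, 0 of the 40 steps between neighbours in that order passed the edgeR threshold. An unadjusted p below 0.05 was reached by 1 step, that of *Kcnk9* from ZT18 down to ZT10 (adjusted p = 0.0581, with 12.8% of all genes called for that pair), and DESeq2 called 1 step. For *Kcnk1* the order was ZT14, ZT10, ZT18, ZT6, ZT22 and ZT2, and for *Kcnk2* it was ZT14, ZT22, ZT2, ZT18, ZT6 and ZT10.

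The other 6 K2P genes of the mouse were scarce or nearly absent. *Kcnk7* (0.567 RPKM) lay between *Kcnk4* and *Kcnk10* in level, and *Kcnk6* (0.308 RPKM) and *Kcnk5* (0.118 RPKM) lay between *Kcnk10* and *Kcnk12*. These 3 were tested, and 0 of the 3 changed with time by edgeR (0 at an unadjusted p below 0.05, and 0 by DESeq2). *Kcnk5*, TASK-2, had no reads in any ZT6 replicate. *Kcnk6*, TWIK-2 and the close relative of *Kcnk1*, was highest at ZT14 (1.99 CPM) and lowest at ZT18 (0.277 CPM), and without ZT18 A its adjusted p was 0.0413. *Kcnk15*, *Kcnk16* and *Kcnk18* had 1, 3 and 4 reads over all 18 replicates and were not tested.

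Of the genes known to bind, traffic or regulate K2P channels, 14 of the 19 tested changed with time (73.7%, beside 44.0% of all genes), and the list was not compared with others. Of these 14, 4 had their highest mean at ZT22, 3 each at ZT6 and ZT14, 2 at ZT10 and 1 each at ZT2 and ZT18. Among the genes of the Gq pathway, which closes TREK and TASK channels, *Gnaq* had 557 ± 110 CPM at ZT22 and 186 ± 26.2 CPM at ZT10 (edgeR adjusted p = 2.15e-06). *Plcb1*, the phospholipase downstream of *Gnaq*, had 111 ± 30.2 CPM at ZT22 and 32.3 ± 9.21 CPM at ZT6 (edgeR time test, adjusted p = 3.63e-05). *Gna11* had its highest mean at ZT14, 277 ± 22.4 CPM, and its lowest at ZT2, 97.6 ± 49.1 CPM (edgeR time test, adjusted p = 0.000288). These 3 genes had their highest means in the dark phase, whereas *Plcb4*, another phospholipase of the pathway, had 99.6 ± 20.3 CPM at ZT6 and 65.1 ± 12.9 CPM at ZT18 and did not pass the time test (adjusted p = 0.189).

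Among the genes of channel trafficking, *Sort1* encodes sortilin, a sorting receptor that binds TREK-1. *Sort1* had 164 ± 48.9 CPM at ZT22 and 49.4 ± 7.99 CPM at ZT6 (edgeR time test, adjusted p = 3.11e-06). *S100a10*, or p11, which binds TASK-1, had 69.8 ± 17.2 CPM at ZT10 and 21.4 ± 1.28 CPM at ZT18 (edgeR time test, adjusted p = 1.23e-05). The 14-3-3 protein gene *Ywhag* had 669 ± 9.37 CPM at ZT14 and 223 ± 89.8 CPM at ZT2 (edgeR time test, adjusted p = 0.000146). Inside the ZT14 and ZT18 cluster, *Sort1* was higher at ZT14 by a log2 difference of 1.32 (SE 0.21, edgeR adjusted p = 0.0242) and *Plcb1* by 1.11 (SE 0.24, adjusted p = 0.047). These were the 2 called partners of 19, beside 0.570% of all genes. The neuronal markers called by edgeR in this contrast were also higher at ZT14, namely *Slc17a7* by 1.98 (SE 0.40, adjusted p = 0.0352), *Rbfox3* by 1.60 (SE 0.27, adjusted p = 0.0242) and *Syt1* by 0.95 (SE 0.18, adjusted p = 0.0245). The median was 1.67 over the 6 telencephalic excitatory markers (1 called) and 0.52 over the 5 markers of neurons in general (2 called). Over the 7 SCN neuron markers it was 0.03, with 0 called and values from -0.76 for *Nms* to 1.14 for *Avp*. The part of neuronal content in the partner differences was not tested. *Sort1* was also the only partner called in the contrast of ZT14 and ZT22 with ZT18 and ZT2 (log2 difference 0.82, SE 0.15, edgeR adjusted p = 0.0463). In that contrast 0.148% of all genes were called.

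As a description of pattern, Pearson correlations of log2 CPM were taken over the 18 replicates, which share timepoints and clusters. Between members they ran from -0.29 to 0.61 with a median of 0.09 over 28 pairs, the highest being that of *Kcnk2* with *Kcnk9*. Among all genes that averaged 10 or more counts, the nearest to *Kcnk1* were *Cacnb3* (r = 0.88), *Ehd1* (r = 0.86) and *Agpat3* (r = 0.85). *Kcnk2* was nearest to *Meis2* (r = 0.90), *Adcy5* (r = 0.90) and *Gng7* (r = 0.87). These values include ZT14 A and B, the libraries highest in *Kcnk2* and in the striatal genes, and the part of these libraries in them was not tested. For *Kcnk9* the nearest were *Got2-ps1*, *Tkt* and *Adar* (each r = 0.94).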

How the data were processed

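RNA from laser-captured SCN was amplified with a SMARTer kit and sequenced in 3 lanes per replicate, giving 54 lane samples of 18 replicates, and 0 deposited sample columns were left unused. The authors aligned the reads with GSNAP to mm10 (GRCm38) and counted them per gene with HTSeq 0.5.4p1. One deposited table holds whole-number counts with the lanes combined, and the other holds normalized signal (reads divided by a size factor per column), from which whole reads were recovered (100% of values whole, within a tolerance of 0.001 of a read) as an alternative input. For ZT6 and ZT10 the tables differ for most expressed genes. The strand setting of the counting is not given in the sources used here, so reads of overlapping or antisense genes (known for all members but *Kcnk9* and *Kcnk12*) cannot be separated.

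A gene was tested if over 6 replicates held 1 read or more of it (18941 genes). edgeR 4.0.16 in R 4.3.3 gave TMM-scaled CPM, the time test and all contrasts from 1 fit of 18 replicates, with a threshold of 0.05. DESeq2 1.42.0 served as an alternative, limma 3.58.1 fitted the cosinor regression tried in place of JTK_CYCLE, and JTK_CYCLE (24 hr period, 6 lags, exact null distribution, Bonferroni over lags) ran in Python 3.11.15. The edgeR and JTK_CYCLE steps were tested on simulated data. RPKM used exon lengths of GENCODE M21, and log2 CPM a prior count of 2. Intervals and floors cover counting error only. The share of all genes whose replicates do not overlap was counted only for pairs of timepoints inside a cluster. Each replicate is a separate pool of mice. The members, lists and tests were chosen with earlier results of these data known. *Plcb4* and the neuronal markers were named after their values were seen. Otherwise named are all members, the tested other K2P genes, the 6 partners with the smallest time-test p among those past the threshold, and the 3 genes most like each member that changed with time. The striatal list was chosen after seeing the values, as was the alternative without ZT14 A and B. Other alternatives were DESeq2, other size factors, 2 filters, a replicate block, the recovered reads and leaving out each replicate. Replicate letters did not pair the samples.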

Additional observations from a re-analysis of the deposited data

How the results depend on the processing

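*Kcnk1* and *Kcnk2* passed the time test in 26 of 26 alternatives and *Kcnk9* in 25 of 25 (adjusted p up to 0.0254, 0.0452 and 0.0342), and the other members in none. Requiring 10 counts or more in each replicate left *Kcnk4*, *Kcnk9*, *Kcnk12* and *Kcnk13* untested. The count of cycling members was 1 with Benjamini-Hochberg adjustment of JTK_CYCLE over genes, 3 without ZT14 A and B, and 1 to 3 when single replicates were left out. It was 1 without ZT10 A, ZT10 B or ZT22 C, where *Kcnk9* missed (p = 0.0662 each, exact), and 3 without ZT14 A or without ZT14 B. *Kcnk2* passed JTK_CYCLE in 2 of the 18 leave-one-out runs, the last 2 named (p = 0.0253 each, exact). For steps between neighbouring levels the count was 1 with DESeq2 and 0 to 1 with single replicates left out (1 without ZT6 C, ZT10 C or ZT18 C). Among the other K2P genes it was 0 to 1 (1 without ZT18 A, *Kcnk6*). The causes were not tested.

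With the replicate letter as a replicate block, 3 members changed with time, as without it, and over all genes 7847 were called in place of 8343. Deviations of same-lettered samples correlated at a median of -0.003 (from -0.19 to 0.10 over 45 pairs), so the letters share only a name. Depth limits *Kcnk9* and *Kcnk12* most, since a floor of 3 counts corresponds to 0.0825 to 0.183 CPM per library.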
